A study of Homo sapiens with 16 samples.

Results

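The SR proteins and the hnRNP proteins are the 2 large families of RNA-binding splicing regulators, and their genes are described here in an established human breast cancer line, MDA-MB-231, treated with 3 drugs alone and in every combination. The genes were taken by name from the deposited intensity table, as every row whose name starts with SFRS followed by a digit, with SRSF followed by a digit, or with HNRNP. This gave 43 of 34691 names, 22 SFRS names and 21 HNRNP names. The table uses the older SFRS symbols, and all 43 names matched a current gene in the RefSeq gene table. Of the 43, 41 were tested (20 SFRS and 21 HNRNP), because 2 or more of the 16 arrays gave them a detection p-value under 0.05 in the deposited table. The series holds 8 groups of 2 Illumina arrays, each treated for 48 h. The DMSO group received the vehicle. Entinostat was given at 2.5 µM, ATRA (all-trans retinoic acid) at a dose of 1 µM and doxorubicin at a dose of 0.2 µM as single treatments. The combined groups received entinostat plus ATRA, entinostat plus doxorubicin, ATRA plus doxorubicin, or all 3 drugs, at these same doses.

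SR proteins carry RNA recognition motifs and a tail rich in arginine and serine, bind enhancers in exons and recruit the spliceosome to nearby splice sites. The hnRNP proteins coat nascent transcripts, often oppose SR proteins at the same exons, and also act in export, stability and translation of messenger RNA. Many genes of both families control their own transcripts by including a poison exon that sends the RNA to nonsense-mediated decay, a step that a gene-level array does not resolve. ATRA is a ligand of retinoic acid receptors, entinostat an inhibitor of class I histone deacetylases, and doxorubicin poisons topoisomerase II and intercalates into DNA.

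Whether the numbered replicates are separate cultures is not stated in the labels. The p-values therefore reflect the spread between arrays, and that spread may be technical. An array detected 11402 to 12748 genes (36.4% to 40.7%), and the number of arrays limits the precision. VIM, CD44, AXL, CAV1 and LGALS1, genes of mesenchymal breast lines, were detected on all 16 arrays, while SPARC was detected on 3. ESR1 and PGR, the hormone receptors that this line lacks, were detected on 0 arrays, ERBB2 and CDH1 on 1 each, and the epithelial genes EPCAM, KRT8 and KRT18 on 16. Of 9 genes of blood cells, endothelium and fibroblasts, PTPRC, CD3E and DCN were detected on 0 arrays, CDH5 on 1, COL3A1 on 3, VWF on 4, COL1A1 on 6, and CD14 and PECAM1 on 13. The summed signal of these 9 genes was 88.6 to 127.8 in DMSO, 188.1 to 203.1 in ATRA, 136.6 to 241.6 in doxorubicin and 103.3 to 253.5 in ATRA plus doxorubicin. With entinostat the sum was higher, 408 to 484.6 alone, 568.7 to 592.6 with ATRA, 912 to 976.2 with doxorubicin and 661.5 to 824.2 in the 3-drug group. CD14 alone ranged from 44.2 to 796.2, and the part of these genes in the results below was not tested.

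The 2 doxorubicin arrays stood further apart than the pairs of other groups, with a correlation over all tested genes of 0.981, against 0.985 to 0.991 elsewhere. Their largest gaps among the splicing genes all ran the same way. Replicate 2 was lower by 1.02 (log2) for SFRS6, by 0.94 for SFRS3, by 0.92 for HNRNPD, by 0.89 for SFRS2, by 0.85 for HNRNPR and by 0.79 for SFRS4. The changes with doxorubicin alone are therefore also given without replicate 2 for the genes with these gaps, for SFRS1 and SFRS10, and for some further genes.

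The upstream sequences of 6 genes are shown because these genes carry the main patterns. SFRS1, SFRS4, SFRS10 and SFRS3 had the largest falls among the SFRS names with a listed promoter. HNRNPD had the largest fall among the HNRNP names in entinostat plus doxorubicin. SFRS5 was the gene called higher with doxorubicin alone. Each line gives the 120 bases before the RefSeq start of the gene on GRCh38.p14, read 5′ to 3′ along the gene's strand. Capitals mark the letters of a searched motif on either strand.
SFRS1 (chr17:58007247-58007366, reverse strand): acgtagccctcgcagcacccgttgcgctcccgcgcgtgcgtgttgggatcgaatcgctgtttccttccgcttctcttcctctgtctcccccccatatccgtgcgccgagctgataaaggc
SFRS4 (chr1:29181901-29182020, reverse strand): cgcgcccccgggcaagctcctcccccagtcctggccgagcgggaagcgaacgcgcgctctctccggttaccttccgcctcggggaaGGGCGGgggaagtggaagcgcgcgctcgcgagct
SFRS10 (chr3:185938015-185938134, reverse strand): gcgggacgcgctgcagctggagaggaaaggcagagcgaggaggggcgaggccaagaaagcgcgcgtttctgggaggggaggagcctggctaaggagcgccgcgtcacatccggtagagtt
SFRS3 (chr6:36594242-36594361, forward strand): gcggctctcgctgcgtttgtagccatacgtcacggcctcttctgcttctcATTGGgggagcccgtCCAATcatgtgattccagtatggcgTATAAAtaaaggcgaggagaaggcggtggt
HNRNPD (chr4:82373992-82374111, reverse strand): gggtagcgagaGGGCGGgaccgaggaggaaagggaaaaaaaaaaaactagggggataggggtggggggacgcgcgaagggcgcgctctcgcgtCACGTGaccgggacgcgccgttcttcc
SFRS5 (chr14:69767022-69767141, forward strand): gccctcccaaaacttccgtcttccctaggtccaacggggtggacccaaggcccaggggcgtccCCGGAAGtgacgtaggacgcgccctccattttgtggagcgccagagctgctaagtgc

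RefSeq promoters of 300 bases, with 250 before and 50 after the start, were found for 38 of the 43 genes, and the first listed was used where a gene had several. HNRNPA1, HNRNPA3P1, SFRS2, SFRS15 and SFRS16 had no entry. A set of 9 short motifs, none of which contains another, was searched by exact letters on both strands. The shares of all promoters count every listed promoter, also where a gene had several. CCAAT, the CCAAT box, was in 16 of the 38 windows (42.1%), against 34.6% of all 35116 promoters, and it was in 13 of 19 HNRNP windows (68.4%) and 3 of 19 SFRS windows (15.8%). GGGCGG, the GC box, was in 57.9% of the windows and 45% of all promoters, with 73.7% of the HNRNP and 42.1% of the SFRS windows. CCGGAAG, an ETS core, was in 23.7% of the windows and 10.3% of all promoters, with 36.8% of the SFRS and 10.5% of the HNRNP windows. CACGTG, the E-box, was in 21.1% and 7.26%, TATAAA in 15.8% and 11.5%, TTTCCCGC, an E2F core, in 5.26% and 1.63%, AAGATGG, a YY1 core, in 2.63% and 5.84%, and GCGCATG, an NRF1 core, in 2.63% and 4.43%. TGACGTCA, the cyclic AMP response element, was in 0 of 38 windows and 1.85% of all promoters. The windows had a median of 29 CG dinucleotides and a GC content of 63.8%, against 14 and 58.7% over all promoters, and a match describes letters and not a bound site. In the printed stretches SFRS3 holds a TATA box and a CCAAT box on each strand, HNRNPD an E-box and a GC box, SFRS4 a GC box and SFRS5 the ETS core, while SFRS1 and SFRS10 hold none of the 9.

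Doxorubicin lowered many genes of both families. Alone it lowered 17 of the 41 tested genes (10 of 20 SFRS and 7 of 21 HNRNP) and raised 1, SFRS5. Over all 17126 tested genes 7.12% were called lower and 6.48% higher in the same comparison. A gene is called here at a limma adjusted p below 0.05 over all tested genes. Entinostat plus doxorubicin lowered 28 of 41 (16 SFRS and 12 HNRNP) and raised none, with 14.8% of all genes called lower and 13.2% higher. ATRA plus doxorubicin lowered 16 and raised SFRS5, with 7.57% of all genes lower and 7.4% higher. The 3-drug combination lowered 23 (14 SFRS and 9 HNRNP), and raised none, with 14.8% of all genes lower and 13% higher. The median log2 change of the 41 genes was -0.41 under doxorubicin, -0.74 with entinostat added, -0.42 with ATRA added and -0.65 with both, while the median of all tested genes lay between -0.01 and 0.00. These 4 comparisons share the same DMSO arrays.

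A fit with fewer arrays has less power for every gene, and the shares of all tested genes in such fits are not given here. The count under doxorubicin alone rests partly on single arrays. It was 18 in both directions together, 6 without doxorubicin replicate 2, 7 without DMSO replicate 1 and 8 in a fit of only the 4 arrays compared. The falls of HNRNPA0, HNRNPR, SFRS1, SFRS10 and SFRS2 were called whichever array was left out. ATRA plus doxorubicin gave 17 calls in all, 7 without DMSO replicate 1 and 10 without ATRA plus doxorubicin replicate 2. With 1 array left out, entinostat plus doxorubicin gave between 23 and 29 calls and the 3-drug group between 19 and 24. Of their 28 and 23 calls, 20 and 18 were kept whichever array was left out.

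**Figure D1:**
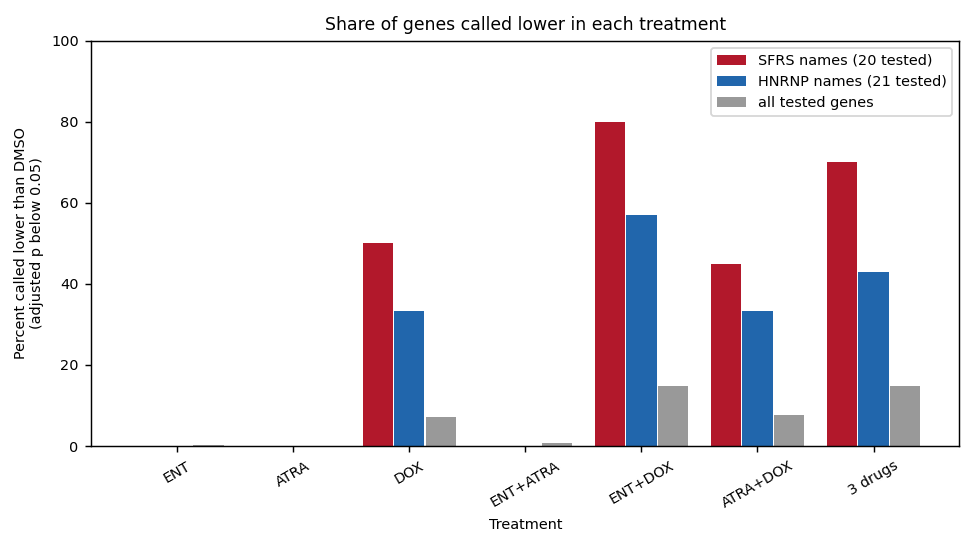
Percent of the tested SFRS names, HNRNP names and all tested genes called lower than DMSO (vertical axis, limma adjusted p below 0.05) in each of the 7 treatments (horizontal axis; ENT is entinostat and DOX doxorubicin). With entinostat plus doxorubicin 80% of the SFRS names and 57.1% of the HNRNP names were lower, against 14.8% of all genes, and without doxorubicin the bars of both families are at 0.

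**Figure D2:**
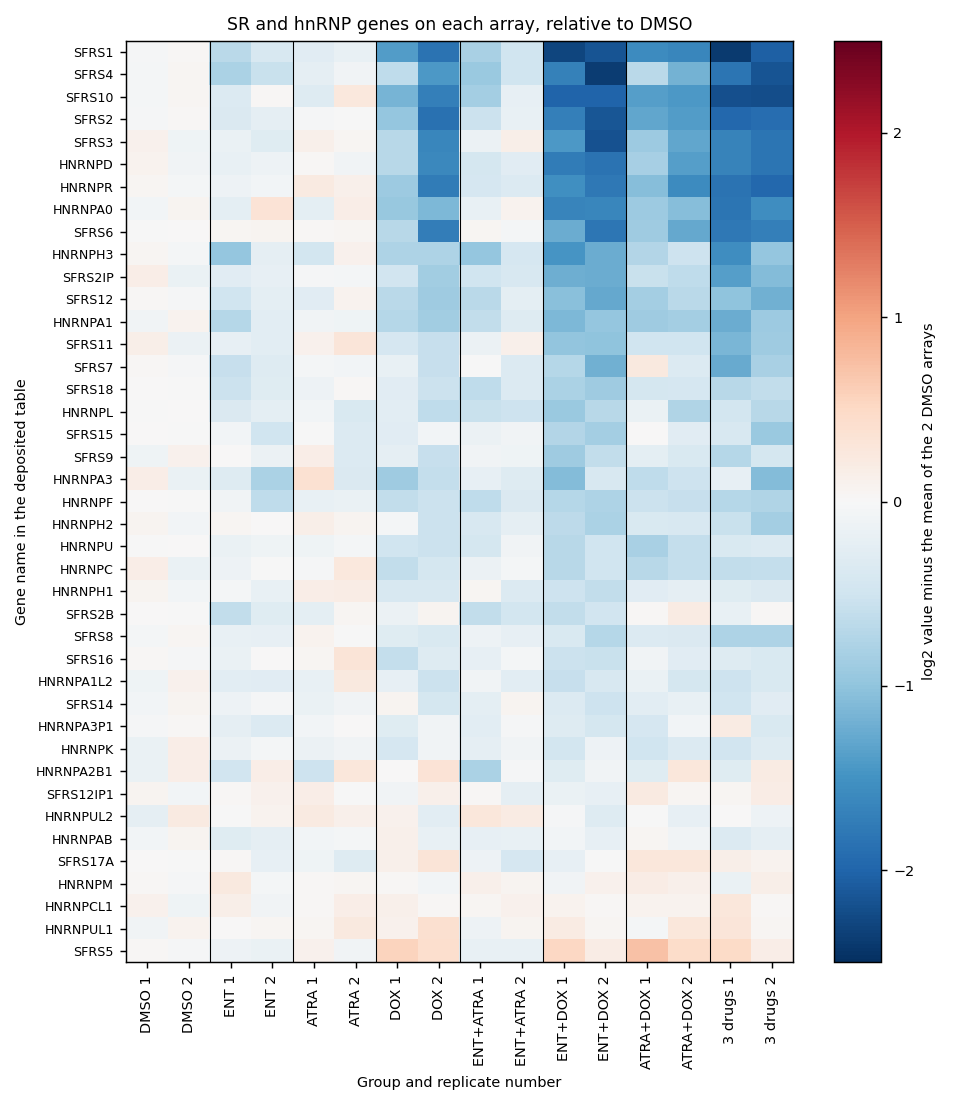
Log2 value of each of the 41 tested genes (rows) on each of the 16 arrays (columns), minus the mean of the 2 DMSO arrays, ordered by the change in entinostat plus doxorubicin (ENT, entinostat; DOX, doxorubicin). Blue cells are lower and red cells higher than DMSO, and the 8 arrays with doxorubicin are the blue columns in the upper part of the plot.

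Of the 10 tested SR proteins that carry an SRSF number today, 6 fell and 1 rose with doxorubicin alone (median log2 change -0.77, or -0.53 without doxorubicin replicate 2, when 2 fell and 0 rose), and 9 fell with entinostat plus doxorubicin (median -1.26). SFRS1 (SRSF1), the founding SR protein and a known oncogene in breast epithelium, had the largest fall of all 41 genes in entinostat plus doxorubicin. Without doxorubicin SFRS1 gave signals of 4262.6 and 4508.1 in DMSO, 2754.9 and 3324 in entinostat, 3554.3 and 3855.6 in ATRA, and 2480.3 and 3108.7 in entinostat plus ATRA. With doxorubicin SFRS1 gave 1631 and 1174.4 alone, 1440.3 and 1370.4 with ATRA, 847.2 and 940 with entinostat, and 779.5 and 1013 with both. Every array with doxorubicin was below every array without it, and the 4 lowest arrays were those with entinostat and doxorubicin together. The fall against DMSO was 1.63 on the log2 scale with doxorubicin (SE 0.17, n = 2 arrays each, limma adjusted p = 0.000112), and SFRS1 fell by 2.23 with entinostat plus doxorubicin (SE 0.17, adjusted p = 1.26e-06), a 4.68-fold lower level. Without doxorubicin replicate 2 the change with doxorubicin was -1.40 (adjusted p = 0.0014).

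SFRS2 (SRSF2), an SR protein of nuclear speckles, gave 4344.1 and 4482.7 in DMSO, 3453.3 and 3732.3 in entinostat, 4339.5 and 4476.6 in ATRA, and 3029.8 and 3877.1 in entinostat plus ATRA. With doxorubicin SFRS2 gave 2221.7 and 1175.6 alone, 1749.8 and 1654.7 with ATRA, 1311.2 and 960.1 with entinostat, and 1096.9 and 1124.2 with both. Arrays with and without doxorubicin did not overlap. SFRS2 fell by 1.41 with doxorubicin (SE 0.23, limma adjusted p = 0.00134) and fell by 1.92 with entinostat plus doxorubicin (SE 0.23, adjusted p = 3.42e-05). Without doxorubicin replicate 2 the change with doxorubicin was -0.96 (adjusted p = 0.011).

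SFRS3 (SRSF3), a small SR protein that shuttles and helps to export messenger RNA, gave 371.2 and 310.4 in DMSO, 295.6 and 263.3 in entinostat, 377.8 and 353.8 in ATRA, and 298.6 and 380.9 in entinostat plus ATRA. With doxorubicin SFRS3 gave 185.1 and 62.9 alone, 147.2 and 96 with ATRA, 82.6 and 22.2 with entinostat, and 60.1 and 47.3 with both. The 8 arrays with doxorubicin were all lower, and the pairs of doxorubicin and of entinostat plus doxorubicin were wide. SFRS3 fell by 1.16 with doxorubicin (SE 0.27, limma adjusted p = 0.0109) and fell by 1.81 with entinostat plus doxorubicin (SE 0.27, adjusted p = 0.000196). Without doxorubicin replicate 2 the change under doxorubicin was -0.69 (adjusted p = 0.136), and neither there nor without DMSO replicate 1 (adjusted p = 0.0954) was it called.

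SFRS4 (SRSF4), an SR protein with a long arginine and serine tail, gave 1580.3 and 1734 in DMSO, 918.4 and 1092.1 in entinostat, 1402.8 and 1563.8 in ATRA, and 832.7 and 1148.6 in entinostat plus ATRA. With doxorubicin SFRS4 gave 1034.5 and 561.8 alone, 1009.5 and 690.6 with ATRA, 459.8 and 259.6 with entinostat, and 412.7 and 316.5 with both. Entinostat arrays were low already without doxorubicin and overlapped those of doxorubicin, and the 4 arrays with both drugs were the lowest. SFRS4 fell by 1.04 with doxorubicin (SE 0.27, limma adjusted p = 0.0195) and fell by 2.04 with entinostat plus doxorubicin (SE 0.27, adjusted p = 7.39e-05). The first of these was -0.64 without doxorubicin replicate 2 and was then not called (adjusted p = 0.217), nor was it without either DMSO array.

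SFRS6 (SRSF6), an SR protein whose amount is known to affect wound repair and skin tumours, gave 3913.7 and 4052.3 in DMSO, 4107.6 and 4208.5 in entinostat, 4080.4 and 4146.3 in ATRA, and 4107.6 and 3825.2 in entinostat plus ATRA. With doxorubicin SFRS6 gave 2456.3 and 1168.8 alone, 2144.4 and 1626.9 with ATRA, 1659.2 and 1088.4 with entinostat, and 1107.8 and 1166.3 with both. The 8 arrays without doxorubicin lay close together, whatever else was added, and above all 8 with it. SFRS6 fell by 1.21 with doxorubicin (SE 0.26, limma adjusted p = 0.00656), or by 0.70 without doxorubicin replicate 2 (adjusted p = 0.069). It fell by 1.52 with entinostat plus doxorubicin (SE 0.26, adjusted p = 0.000501) and by 1.75 with all 3 drugs (SE 0.26, adjusted p = 0.00018).

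SFRS7 (SRSF7), an adaptor for the export of messenger RNA, behaved less evenly. Its signal was 808.7 and 779.2 in DMSO, 517.2 and 625.5 in entinostat, 765 and 758.5 in ATRA, and 794.4 and 608.9 in entinostat plus ATRA. With doxorubicin SFRS7 gave 696.7 and 511.7 alone, 961.8 and 614.4 with ATRA, 457.5 and 304.2 with entinostat, and 292.9 and 427.1 with both. The 4 arrays with both entinostat and doxorubicin were below the other 12, which overlapped one another. The change with doxorubicin alone was -0.38 (SE 0.23) and was not called (limma adjusted p = 0.315), whereas SFRS7 fell by 0.96 with entinostat plus doxorubicin (SE 0.23, adjusted p = 0.00514) and by 1.03 with all 3 drugs (SE 0.23, adjusted p = 0.00339). Without entinostat plus doxorubicin replicate 2 the first of these was -0.72 (adjusted p = 0.0667), and without 3-drug replicate 1 the other was -0.80 (adjusted p = 0.0515).

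Other tested SR proteins of the SRSF series also fell with entinostat plus doxorubicin. SFRS11 (SRSF11) fell by 1.00 with entinostat plus doxorubicin (SE 0.14, limma adjusted p = 0.000146). Its signals were 195.7 and 148.7 in DMSO, 111.6 and 90.9 in doxorubicin, 53.3 and 51.2 in entinostat plus doxorubicin, and 41.7 and 61.1 with all 3 drugs. SFRS9 (SRSF9), a short SR protein, fell by 0.75 (SE 0.18, adjusted p = 0.0063), a call lost without DMSO replicate 2 or entinostat plus doxorubicin replicate 1. SFRS2B (SRSF8), an intronless relative of SRSF2, fell by 0.55 (SE 0.15, adjusted p = 0.0131), a call lost without either DMSO array or entinostat plus doxorubicin replicate 1. With doxorubicin alone the changes of SFRS9 and SFRS2B were -0.40 and -0.04, and neither was called. The mean log2 value of SFRS2B was 9.406 in DMSO, 9.528 in ATRA plus doxorubicin and 9.328 with all 3 drugs.

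SFRS5 (SRSF5) was the gene called higher with doxorubicin alone and with ATRA plus doxorubicin, and it was given array values here after they were seen. This SR protein, first described as a gene induced in regenerating liver, gave 1841.9 and 1794.6 in DMSO, 1633.9 and 1589.5 in entinostat, 1960.7 and 1687.7 in ATRA, and 1571.1 and 1581.1 in entinostat plus ATRA. With doxorubicin SFRS5 gave 2701.4 and 2420.5 alone, 3065.7 and 2495.2 with ATRA, 2611 and 2072.9 with entinostat, and 2554 and 2063.9 with both. All 8 arrays with doxorubicin were above all 8 without it. The rise was 0.48 with doxorubicin (SE 0.15, limma adjusted p = 0.0478), a call lost without any 1 array of the DMSO, entinostat, ATRA, entinostat plus ATRA or doxorubicin pairs and with other corrections of the background. The rise was 0.60 with ATRA plus doxorubicin (SE 0.15, adjusted p = 0.0155), a call lost without either DMSO array or ATRA plus doxorubicin replicate 1. With entinostat plus doxorubicin the change was 0.35 (SE 0.15, adjusted p = 0.107) and with all 3 drugs 0.32 (SE 0.15, adjusted p = 0.14), neither of them called.

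**Figure D3:**
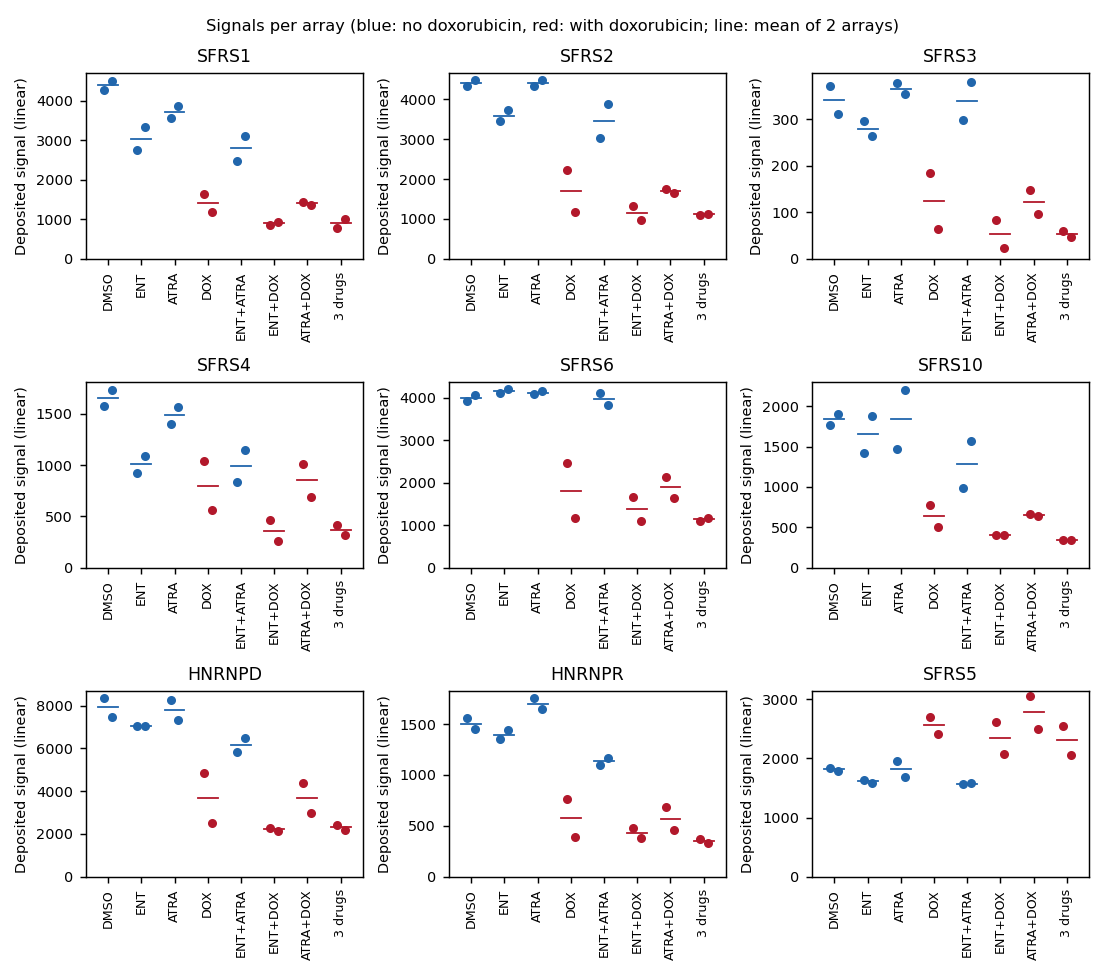
Deposited linear signal (vertical axes, from 0) of 9 genes on each of the 16 arrays, by treatment (horizontal axes), with a line at the mean of each pair. Red points, with doxorubicin, lie below blue points, without it, for SFRS1, SFRS2, SFRS3, SFRS6, SFRS10, HNRNPD and HNRNPR, overlap them for SFRS4, and lie above them for SFRS5.

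Of the 10 tested SR-related proteins, 4 fell with doxorubicin alone (median log2 change -0.37, or -0.29 with 2 that fell without doxorubicin replicate 2) and 7 with entinostat plus doxorubicin (median -0.67). SFRS10 (TRA2B), a Tra2 protein that promotes exon inclusion through purine-rich enhancers, had the largest fall of these. Without doxorubicin SFRS10 gave 1772.1 and 1909.9 in DMSO, 1425.3 and 1884 in entinostat, 1474.2 and 2205.6 in ATRA, and 990.4 and 1568.9 in entinostat plus ATRA. With doxorubicin SFRS10 gave 777.5 and 509.5 alone, 667.4 and 639.5 with ATRA, 405.8 and 401.8 with entinostat, and 347.7 and 338.6 with both. Arrays with and without doxorubicin did not overlap, and the 3-drug pair was the lowest. SFRS10 fell by 1.44 with doxorubicin (SE 0.23, limma adjusted p = 0.00128) and fell by 2.01 with entinostat plus doxorubicin (SE 0.23, adjusted p = 2.74e-05). It fell by 2.20 with all 3 drugs (SE 0.23, adjusted p = 1.52e-05), a 4.61-fold lower level. Without doxorubicin replicate 2 the change with doxorubicin was -1.17 (adjusted p = 0.0173).

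SFRS12 (SREK1), which binds other SR proteins and alters the choice of splice site, gave 178.4 and 169.8 in DMSO, 105.2 and 136.2 in entinostat, 130.4 and 191.1 in ATRA, and 83.4 and 137.6 in entinostat plus ATRA. With doxorubicin SFRS12 gave 83.6 and 63 alone, 66.2 and 83.3 with ATRA, 49.8 and 32.4 with entinostat, and 54.5 and 38.1 with both. The highest array with doxorubicin, at 83.6, met the lowest without it, at 83.4. SFRS12 fell by 1.17 with entinostat plus doxorubicin (SE 0.17, limma adjusted p = 0.000204). With doxorubicin alone the change of SFRS12 was -0.78, or -0.67 without doxorubicin replicate 2. That call was lost without this array or without DMSO replicate 1.

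SFRS2IP (SCAF11), which was named for binding to SRSF2, gave 266.1 and 201.8 in DMSO, 178.4 and 194.1 in entinostat, 226.2 and 222.2 in ATRA, and 145.7 and 161.8 in entinostat plus ATRA. With doxorubicin SFRS2IP gave 145.7 and 93.7 alone, 135.4 and 124.7 with ATRA, 61.5 and 59.4 with entinostat, and 48 and 73.2 with both. The arrays with both entinostat and doxorubicin were the lowest 4. SFRS2IP fell by 1.23 with entinostat plus doxorubicin (SE 0.15, limma adjusted p = 5.09e-05). With doxorubicin alone the change of SFRS2IP was -0.68, or -0.49 without doxorubicin replicate 2. That call was lost without this array or without DMSO replicate 1. Its detection p-values in ATRA plus doxorubicin were 0.0904 and 0.0761, so the fall there is given as at least 1.51-fold (adjusted p = 0.0176, not called without DMSO replicate 1 or either array of the group).

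Among further SR-related genes, SFRS18 (PNISR) fell by 0.84 with entinostat plus doxorubicin, SFRS15 (SCAF4), which binds the tail of RNA polymerase II, by 0.79, and SFRS8 (SFSWAP), the homologue of a splicing regulator of the fruit fly, by 0.55, which was not called without entinostat plus doxorubicin replicate 2. With all 3 drugs SFRS15 fell by 0.67, or by 0.40 without 3-drug replicate 2, and it was not called without that array or either DMSO array. SFRS16 (CLASRP), a partner of the kinase CLK4, was near background, at 51.2 and 45.2 in DMSO and at 12.8 and 11.5 in entinostat plus doxorubicin. It was not detected on either of the last 2 arrays, and the fall is given as at least 1.46-fold (limma adjusted p = 0.0097, or 0.0639 without DMSO replicate 1). SFRS14 (SUGP2), SFRS17A (AKAP17A) and SFRS12IP1 (SREK1IP1) were not called in any of the 7 comparisons with DMSO.

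Of the 18 hnRNP genes other than near copies, 7 fell with doxorubicin alone (median log2 change -0.48, or -0.46 with 2 that fell without doxorubicin replicate 2) and 11 with entinostat plus doxorubicin (median -0.66). HNRNPD, also called AUF1, binds AU-rich elements and directs messenger RNA decay. Without doxorubicin HNRNPD gave 8368.8 and 7483.4 in DMSO, 7069.1 and 7044.8 in entinostat, 8250.4 and 7332.5 in ATRA, and 5834.3 and 6494.3 in entinostat plus ATRA. With doxorubicin HNRNPD gave 4855.3 and 2487.1 alone, 4386 and 2985.1 with ATRA, 2295.2 and 2129.9 with entinostat, and 2418.4 and 2198.6 with both. All arrays with doxorubicin were lower, and the pairs with entinostat and doxorubicin were tight. HNRNPD fell by 1.16 with doxorubicin (SE 0.23, limma adjusted p = 0.00513), or by 0.70 and not called without doxorubicin replicate 2 (adjusted p = 0.0527), and without DMSO replicate 1 the adjusted p was 0.0573. It fell by 1.79 with entinostat plus doxorubicin (SE 0.23, adjusted p = 7.13e-05), a 3.47-fold lower level.

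HNRNPR, a relative of SYNCRIP that transports messenger RNA in neurons, gave 1562.3 and 1448.3 in DMSO, 1355.4 and 1439 in entinostat, 1753 and 1649.3 in ATRA, and 1100.7 and 1164.5 in entinostat plus ATRA. With doxorubicin HNRNPR gave 764.5 and 392.2 alone, 685 and 454.6 with ATRA, 474.5 and 379.1 with entinostat, and 365.2 and 332.2 with both. Arrays with and without doxorubicin did not overlap. HNRNPR fell by 1.33 with doxorubicin (SE 0.22, limma adjusted p = 0.00167), by 1.66 with entinostat plus doxorubicin (SE 0.22, adjusted p = 8.76e-05) and by 1.90 with all 3 drugs (SE 0.22, adjusted p = 3.34e-05). Without doxorubicin replicate 2 the change with doxorubicin was -0.91 (adjusted p = 0.0152).

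HNRNPA0, which also binds AU-rich elements, gave 1280.3 and 1436.8 in DMSO, 1117 and 1730.4 in entinostat, 1114.9 and 1533.3 in ATRA, and 1170.9 and 1423.3 in entinostat plus ATRA. With doxorubicin HNRNPA0 gave 668.9 and 575.7 alone, 692.7 and 612 with ATRA, 386.7 and 381.9 with entinostat, and 333.4 and 409.2 with both. The arrays formed 3 levels that did not overlap: no doxorubicin, doxorubicin without entinostat, and doxorubicin with entinostat. HNRNPA0 fell by 1.03 with doxorubicin (SE 0.19, limma adjusted p = 0.00316) and fell by 1.64 with entinostat plus doxorubicin (SE 0.19, adjusted p = 3.24e-05), while its change with entinostat alone was 0.05 (SE 0.19).

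HNRNPA1, the best studied splicing repressor of the family and an antagonist of SRSF1, gave 410.1 and 457.9 in DMSO, 239.9 and 348.8 in entinostat, 405.2 and 396.8 in ATRA, and 260 and 331.1 in entinostat plus ATRA. With doxorubicin HNRNPA1 gave 237.3 and 203.2 alone, 202.1 and 207.8 with ATRA, 163.5 and 186.9 with entinostat, and 145.6 and 196.9 with both. The arrays with doxorubicin were all lower, by a narrow margin between 237.3 and 239.9. HNRNPA1 fell by 0.80 with doxorubicin (SE 0.16, limma adjusted p = 0.00548) and by 1.05 with entinostat plus doxorubicin (SE 0.16, adjusted p = 0.000283). The first call was lost without doxorubicin replicate 2.

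HNRNPH3, which belongs to the family that binds runs of guanine, gave 582.6 and 543.6 in DMSO, 253 and 462.9 in entinostat, 390.4 and 606.7 in ATRA, and 254.1 and 406.4 in entinostat plus ATRA. With doxorubicin HNRNPH3 gave 299.5 and 301.1 alone, 308.9 and 365.6 with ATRA, 157.9 and 196.5 with entinostat, and 147.2 and 253.2 with both. The DMSO pair was above all 4 arrays with entinostat and doxorubicin together, and entinostat replicate 1 was at their upper end. HNRNPH3 fell by 1.36 with entinostat plus doxorubicin (SE 0.26, limma adjusted p = 0.00127). Its relatives HNRNPF, HNRNPH1 and HNRNPH2 fell by 0.74, 0.57 and 0.72 there, the fall of HNRNPH1 with an adjusted p of 0.0565 without DMSO replicate 1, and HNRNPL, which binds CA repeats, fell by 0.82.

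HNRNPC, which packages nascent RNA and binds runs of uridine, gave 679.2 and 518.2 in DMSO, 541 and 580.2 in entinostat, 581.1 and 724.4 in ATRA, and 527.2 and 563.7 in entinostat plus ATRA. With doxorubicin HNRNPC gave 363.3 and 420.1 alone, 341.3 and 367.7 with ATRA, 342.3 and 398 with entinostat, and 359.6 and 364 with both. All 8 arrays with doxorubicin were lower, at much the same level with or without entinostat. HNRNPC fell by 0.52 with doxorubicin (SE 0.15, limma adjusted p = 0.0307, not called without DMSO replicate 1 or without either doxorubicin array) and by 0.59 with entinostat plus doxorubicin (SE 0.15, adjusted p = 0.00756, not called without DMSO replicate 1 or entinostat plus doxorubicin replicate 1).

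HNRNPU, a scaffold attachment factor of nuclear chromatin, gave 151.2 and 154.9 in DMSO, 130.5 and 137.9 in entinostat, 135.8 and 147.3 in ATRA, and 97.1 and 141.4 in entinostat plus ATRA. With doxorubicin HNRNPU gave 88.1 and 83.2 alone, 57.9 and 78.2 with ATRA, 69 and 91 with entinostat, and 103.2 and 107.1 with both. The 3-drug pair was the highest of the pairs with doxorubicin and overlapped entinostat plus ATRA. HNRNPU fell by 0.52 with doxorubicin (SE 0.14, limma adjusted p = 0.0202), a call lost without doxorubicin replicate 2 or without either DMSO array, and by 0.60 with entinostat plus doxorubicin (SE 0.14, adjusted p = 0.00406).

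Other hnRNP genes were not called against DMSO in any treatment. HNRNPK, which binds cytosine-rich RNA and DNA, gave 1415.2 and 1810.2 in DMSO, 1428.5 and 1533 in entinostat, 1444.4 and 1518.6 in ATRA, and 1330.8 and 1496.4 in entinostat plus ATRA. With doxorubicin HNRNPK gave 1184 and 1500.6 alone, 1120.1 and 1252.4 with ATRA, 1149.4 and 1460.1 with entinostat, and 1117.3 and 1261.1 with both. The ATRA plus doxorubicin and 3-drug pairs lay below the DMSO pair, the other groups overlapped it, and HNRNPK was not called against DMSO in any of the 7 comparisons of this fit. HNRNPA2B1, which sorts RNA for transport, gave 334 and 433.6 in DMSO, 256.4 and 437.5 in entinostat, 246.5 and 480 in ATRA, and 192.7 and 374.3 in entinostat plus ATRA. With doxorubicin HNRNPA2B1 gave 387.1 and 505.3 alone, 298.8 and 483.9 with ATRA, 302.1 and 354.3 with entinostat, and 298.5 and 445.9 with both. Replicate 2 was above replicate 1 in all 8 groups, and no treatment stood apart from that spread. Its change in entinostat plus doxorubicin was -0.19 (SE 0.31, limma adjusted p = 0.718), and that of HNRNPM, a regulator of splicing in epithelial to mesenchymal transition, was 0.01 (SE 0.14, adjusted p = 0.98). HNRNPA3, a relative of HNRNPA1, was -0.75 with doxorubicin (SE 0.30, adjusted p = 0.125) and -0.74 with entinostat plus doxorubicin (SE 0.30, adjusted p = 0.0852), with a wide spread between replicates. HNRNPAB, HNRNPUL1 and HNRNPUL2 were also called in none of the 7 comparisons.

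**Figure D4:**
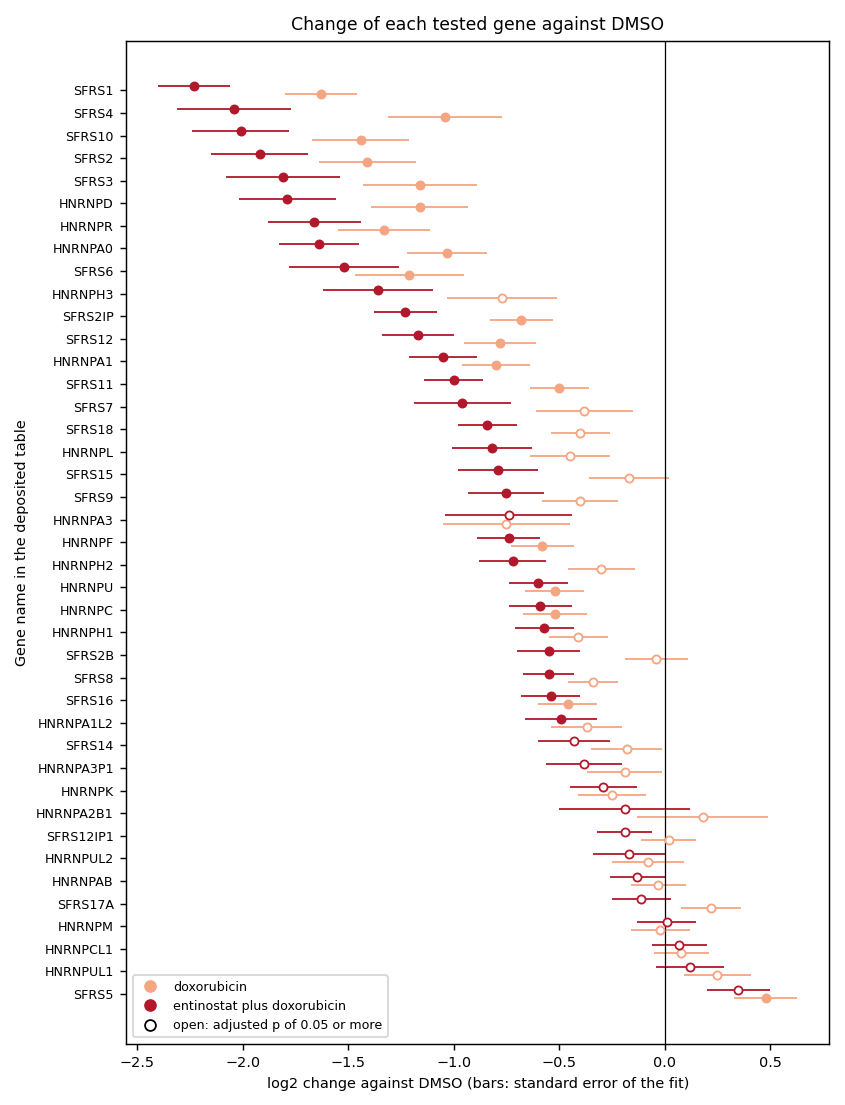
Log2 change against DMSO (horizontal axis) of each of the 41 tested genes (rows), with the standard error of the fit as bars, for doxorubicin and for entinostat plus doxorubicin. Filled points were called at an adjusted p below 0.05, 18 for doxorubicin and 28 for entinostat plus doxorubicin, and SFRS5 is the row with the highest values of both.

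Some names could not be read as single genes or single values. HNRNPA1L2, HNRNPA3P1, a transcribed pseudogene, HNRNPCL1 and SFRS2B are near copies of other genes in the families, and their probes may share signal with the parent gene. HNRNPA1L2 was -0.49 in entinostat plus doxorubicin (SE 0.17, limma adjusted p = 0.0384), a call lost without any 1 array of that group or of DMSO. With the background fitted from the detection p-values its change was -0.06 (adjusted p = 0.0876). HNRNPCL1 was detected on 2 arrays and SFRS12IP1 on 3, both with signals near 0. SFRS13A (SRSF10), an SR protein that acts as a splicing repressor when dephosphorylated, was not tested because its detection p-value passed on only 1 array. It nevertheless gave 141.4 and 156.4 in DMSO, 81.6 and 68.3 in doxorubicin, 35.1 and 41.4 in entinostat plus doxorubicin, and 38.7 and 41.1 with all 3 drugs. None of these 8 arrays had a detection p-value below 0.05, so no fold or test is given. SFRS13B (SRSF12) was detected on 0 arrays.

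The layout holds 4 comparisons of doxorubicin that share no arrays, each within a fixed background of the other drugs: none, ATRA, entinostat, or both. The mean was lower with doxorubicin in all 4 backgrounds for 29 of 41 genes (26% of all tested genes). SFRS1 differed by -1.63, -1.37, -1.69 and -1.57 in that order, SFRS2 by -1.41, -1.33, -1.62 and -1.57, and HNRNPR by -1.33, -1.50, -1.56 and -1.52. SFRS5 differed by 0.48, 0.59, 0.50 and 0.50. Without doxorubicin replicate 2 the first of the 4 values was -1.40 for SFRS1, -0.96 for SFRS2, -0.91 for HNRNPR and 0.56 for SFRS5. SFRS6 differed by -1.21, -1.12, -1.58 and -1.75, HNRNPA0 by -1.03, -0.93, -1.69 and -1.64, and SFRS3 by -1.16, -1.20, -1.58 and -1.74, in the same order. Their first values were -0.70 for SFRS6, -0.95 for HNRNPA0 and -0.69 for SFRS3 without doxorubicin replicate 2. The limma test of a departure from additivity of entinostat and doxorubicin called none of these genes (adjusted p = 0.0964 for HNRNPA0).

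All 8 arrays with doxorubicin lay below all 8 without it for 12 of 41 genes, against 6.08% of all tested genes. These were SFRS1, SFRS2, SFRS3, SFRS6, SFRS8, SFRS10, SFRS11, HNRNPA0, HNRNPA1, HNRNPC, HNRNPD and HNRNPR. All 8 lay above for SFRS5 alone, against 5.36% of all tested genes. For SFRS1 the 8 arrays without doxorubicin had a lowest, median and highest signal of 2480.3, 3439.15 and 4508.1, and the 8 with it 779.5, 1093.7 and 1631. For HNRNPD these values were 5834.3, 7200.8 and 8368.8 without doxorubicin and 2129.9, 2452.75 and 4855.3 with it.

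Averaged over the 4 backgrounds, doxorubicin lowered 30 of 41 genes and raised SFRS5 and SFRS17A, against 21.3% of all tested genes lower and 19.8% higher. The average fall was 1.59 for SFRS10 (SE 0.12, limma adjusted p = 1.21e-07), 1.56 for SFRS1 (SE 0.09, adjusted p = 1.28e-08), and 1.48 for SFRS2 and for HNRNPR. SFRS17A, an anchor for protein kinase A that also regulates splicing, was 0.28 higher (SE 0.07, adjusted p = 0.00566), although its difference was -0.02 where entinostat was the only other drug. HNRNPK, not called against DMSO in any treatment, fell by 0.25 on average (SE 0.08, limma adjusted p = 0.0213). This call was not kept in every fit with an array left out. The genes not called were HNRNPA2B1, HNRNPA3P1, HNRNPAB, HNRNPCL1, HNRNPM, HNRNPUL1, HNRNPUL2, SFRS2B and SFRS12IP1. Among the promoters described above, the GC box was in 65.4% of the 26 windows of lowered genes and 41.7% of the 12 other windows, and CCAAT in 38.5% and 50%, given as a description with no test. The 12 include SFRS13A and SFRS13B, which were not tested, and SFRS5 and SFRS17A, which rose. They are therefore not a set of genes shown to be unchanged.

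**Figure D5:**
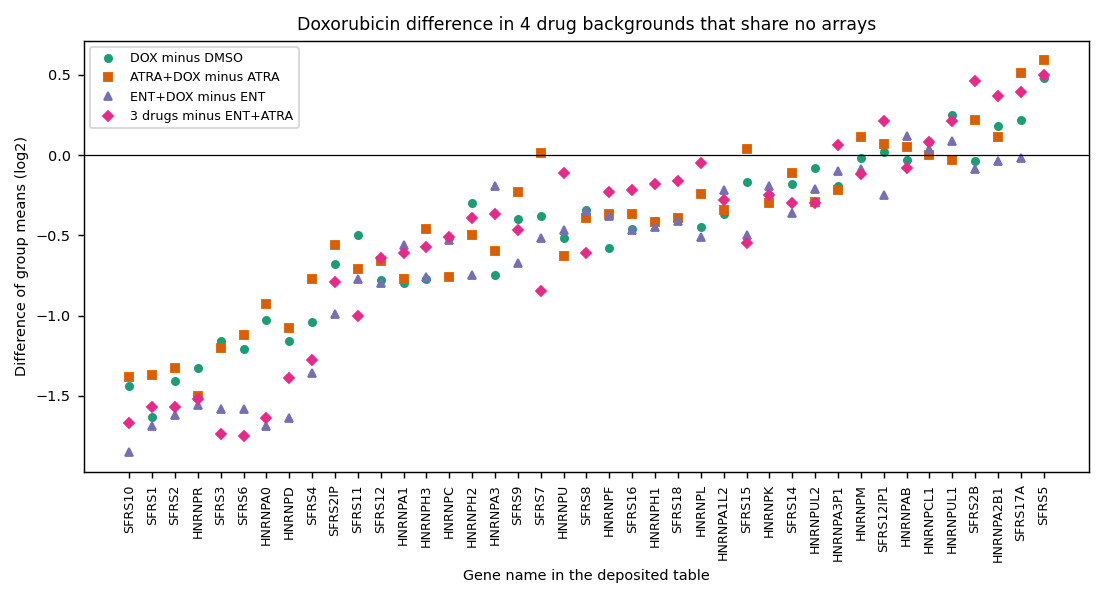
Difference of group means with and without doxorubicin (vertical axis, log2) for the 41 tested genes (horizontal axis), in 4 drug backgrounds that share no arrays and are shown by marker shape. The 4 markers lie below 0 for 29 genes and above 0 for SFRS5, where they run from 0.48 to 0.59.

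Entinostat alone called none of the 41 genes in limma, and 7 had an unadjusted p below 0.05 (1.58% of all tested genes were called). An unadjusted p below 0.05 was reached by 12.3% of all tested genes. All 7 were lower: SFRS1 by 0.54 (SE 0.17), SFRS4 by 0.67 (SE 0.27), SFRS18, SFRS2B, HNRNPA1, HNRNPF and HNRNPH3. The share of all tested genes that were lower at this unadjusted threshold is not given. The 7 genes are therefore not read as a result of entinostat alone. Entinostat plus ATRA likewise called 0 in limma, with 11 at an unadjusted p below 0.05 (15% of all tested genes) and 2.46% of all tested genes called. Without either doxorubicin array 1 gene was called. The smallest adjusted p with all arrays was that of SFRS1, at -0.65 (SE 0.17, limma adjusted p = 0.0685). The median change of the 41 genes was -0.16 with entinostat and -0.19 with entinostat plus ATRA, against -0.02 and -0.01 over all tested genes.

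Averaged over its 4 backgrounds, entinostat lowered 22 of 41 genes, 13 SFRS and 9 HNRNP, and raised none, against 12.3% of all tested genes lower and 11% higher. Not all of these calls were kept when single arrays were left out. Most SFRS names kept the call in every such fit, but of the HNRNP names only HNRNPA1, HNRNPD, HNRNPH2 and HNRNPH3 did. The mean was lower with entinostat in all 4 backgrounds for 26 of 41 genes, against 21.5% of all tested genes. SFRS4 had the largest average fall, 0.83 (SE 0.13, limma adjusted p = 0.000527), made up of differences of -0.67 with no other drug and -0.56 with ATRA, while with doxorubicin it fell by 1.00 and with both fell by 1.07. SFRS1 fell by 0.54 on average (SE 0.09, adjusted p = 0.000482), with -0.54, -0.42, -0.60 and -0.62 in the same order. HNRNPH3 fell by 0.58 (SE 0.13, adjusted p = 0.00498) and SFRS7 by 0.53 (SE 0.11, adjusted p = 0.0037). HNRNPM, HNRNPU, HNRNPK and HNRNPC had average changes between -0.08 and 0.00 and were not called. The summed signal of the 9 markers of other cell types given above was also higher with entinostat. Of these, CD14 alone reached 796.2, and PTPRC, CD3E and DCN were detected on 0 arrays. The part of the 9 markers in these falls was not tested.

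Adding entinostat to doxorubicin lowered 4 of 41 genes further, and raised none, against 3.01% of all tested genes lower and 4.67% higher. SFRS4 fell by 1.00 (SE 0.27, limma adjusted p = 0.0357), SFRS1 by 0.60 (SE 0.17, adjusted p = 0.0496), SFRS2IP by 0.55 (SE 0.15, adjusted p = 0.0435) and SFRS11 by 0.50 (SE 0.14, adjusted p = 0.0462). All 4 lie close to the threshold, and the count was 9 without doxorubicin replicate 2, which was the lower of its pair for many of these genes. It was 0 without doxorubicin replicate 1, without entinostat plus doxorubicin replicate 2 or without either ATRA array, 1 without entinostat plus doxorubicin replicate 1 or either ATRA plus doxorubicin array, and 2 without any DMSO or entinostat array. Without doxorubicin replicate 1 the change of SFRS4 was -0.61 and that of SFRS1 -0.37. A departure from additivity of entinostat and doxorubicin was called in limma for 0 of 41 genes, with 3 at an unadjusted p below 0.05 (13.9% of all tested genes) and 1.86% of all tested genes called. HNRNPA0 had the largest, -0.68 (SE 0.19, adjusted p = 0.0964), and 1 gene was called without entinostat replicate 1 or doxorubicin replicate 2.

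ATRA was followed by little change in these genes. Against DMSO it called 0 of 41 in limma, with 0 at an unadjusted p below 0.05, while 0.0234% of all tested genes were called. Its average over 4 backgrounds called 0 of 41, again with 0 at an unadjusted p below 0.05 and 0.111% of all tested genes called. Adding ATRA to entinostat plus doxorubicin called 0 of 41, with 2 at an unadjusted p below 0.05, SFRS2B (0.47, SE 0.15) and SFRS12IP1 (0.30, SE 0.13), and 0% of all tested genes called. These shares are at the adjusted threshold, and the share of all tested genes at an unadjusted p below 0.05 is not given for ATRA. The 2 genes are therefore not read as a result. The largest average change with ATRA was 0.15, for SFRS16.

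Other genes of splicing were read from 7 lists, leaving out the 43 names. Their counts are to be read against the shares of all tested genes, 7.12% lower and 6.48% higher with doxorubicin, and 14.8% lower and 13.2% higher with entinostat plus doxorubicin. Of 17 other SR-rich or Tra2 proteins, 0 rose and 2 fell with doxorubicin alone, and 0 rose and 10 fell with entinostat plus doxorubicin (median log2 change -0.59). RSRC1, an SR-related protein of splice site selection, fell by 1.25 (SE 0.14, limma adjusted p = 2.03e-05), PNN, a speckle protein, by 1.22, ACIN1, a subunit of a complex on spliced exons, by 1.12, and BCLAF1 by 1.10. Of 20 hnRNP proteins under other symbols and their relatives, 3 fell with doxorubicin, and 8 fell and 1 rose with entinostat plus doxorubicin (median -0.37). SYNCRIP fell by 1.78 (SE 0.18, adjusted p = 1.28e-05) and DAZAP1 by 1.11, whereas CIRBP, an RNA-binding protein induced by cold, rose by 0.95.

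Of 19 other splicing regulators, 6 fell and 1 rose with doxorubicin, and 9 fell and 1 rose with entinostat plus doxorubicin (median -0.38). MBNL1, a regulator of developmental splicing, fell by 1.54 (SE 0.14, limma adjusted p = 5.25e-06), ROD1 (PTBP3) by 1.45, RBM39 by 1.26 and RBM25 by 1.11. Of 57 proteins of the core spliceosome, 11 fell and 3 rose with doxorubicin, and 25 fell and 2 rose with entinostat plus doxorubicin (median -0.36). DHX15, a helicase that disassembles the spliceosome, fell by 1.72 (SE 0.16, adjusted p = 5.03e-06), LSM2, a subunit of the ring that binds U6 RNA, by 1.67, DDX46 by 1.38 and LSM6 by 1.28. Of 11 factors of nonsense-mediated decay, 0 fell and 1 rose with doxorubicin, and 2 fell and 1 rose with entinostat plus doxorubicin (median -0.22), counts near those shares. EIF4A3, the helicase that anchors the exon junction complex, rose by 0.54 and 0.73, and SMG5 fell by 0.92 in the second.

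The kinases that phosphorylate SR proteins were read in the same way. Of 9 tested genes, CLK, SRPK and other kinases with the phosphatase subunit PPP1CA, 0 were called with doxorubicin, and 3 fell and 1 rose with entinostat plus doxorubicin (median -0.32). CLK2 fell by 0.43 (SE 0.12, limma adjusted p = 0.0151), PRPF4B by 0.58 and DYRK1A by 0.37, and SRPK2 rose by 0.58 (SE 0.16, adjusted p = 0.0144). CLK1, CLK3, CLK4 and SRPK1 had changes of -0.32, 0.23, -0.27 and -0.54 there and were not called. Of 3 importins of SR and hnRNP proteins, TNPO1, which imports HNRNPA1, fell by 0.58 with doxorubicin (SE 0.14, adjusted p = 0.0155) and by 0.60 with entinostat plus doxorubicin.

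Array signals are relative to the rest of the transcriptome on the same array, so a change of total RNA is not visible in these values. A lower level in every cell and a level lost in some of the cells cannot be told apart in RNA from a whole culture, nor can fewer cells of a kind and less RNA per cell.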

How the data were processed

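RNA was measured on 16 Illumina BeadChip arrays. The authors deposited linear intensities with a detection p-value per gene and array (background already subtracted, signals from -26 to 22098.4), and a processed log2 table. No source used here says how probes were combined into gene values. Limma is named in the submitters' processing notes. Spike-in controls (92) and unnamed clusters (3270) were left out. Genes with a detection p below 0.05 on at least 2 arrays were kept (17126). Background was corrected by normexp (offset 50) before quantile normalization and log2 transformation, and group means of all 16 arrays were fitted in limma 3.58.1 (R 4.3.3; 8 residual degrees of freedom), with Benjamini-Hochberg adjustment over all tested genes in each of 13 comparisons. The script was tested on simulated data. The genes, the lists and the tests were chosen with earlier results of these data known. Array values are given for the 14 called genes with the largest change against DMSO, for 9 well known genes and for SFRS5. In the other lists up to 4 called genes with the largest changes are named, with the CLK and SRPK kinases. Folds of genes not detected in 1 group are written as at least the fold of the group means, because no array of that group had a detection p below 0.05. The closing section gives alternatives for background, normalization, filter, replicate block and arrays. A marker gene of other cell types was left out of the marker sums and is not reported here.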

Additional observations from a re-analysis of the deposited data

How the results depend on the processing

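The calls of single genes kept their direction under each alternative that tested them. Of 144 calls, 144 were also called with the replicate number as a block, 143 in the authors' log2 table, 139 without the quantile step, 139 without the detection filter, 133 with a normexp offset of 16 and 123 with normexp fitted from the detection p-values. Fewer could be tested over genes detected on all 16 arrays (118 of 120 called), at a mean signal of at least 100 (133 of 133) and with only the 4 arrays compared (75 of 90), and 2090 of 2304 were called with an array left out. Normexp from the detection p-values shrank dim genes: the median change was -0.13 for doxorubicin and -0.24 for entinostat plus doxorubicin, and with doxorubicin SFRS11 was -0.13 and SFRS16 -0.05. The count for entinostat plus doxorubicin against doxorubicin (4) was 1 with offset 16, 0 with normexp from the detection p-values, 2 without the quantile step, 2 without a filter, 2 over genes detected on all 16 arrays, 8 with the replicate block and 0 with only the 4 arrays compared. With an array left out it ran from 0 to 9. With only 4 arrays, which leaves fewer degrees of freedom, doxorubicin against DMSO gave 8. The replicate block gave 1 for entinostat, 3 for entinostat plus ATRA and 1 for the departure from additivity, where the main count was 0. With an array left out the counts ran from 6 to 17 for doxorubicin, from 7 to 18 for ATRA plus doxorubicin, from 0 to 1 for entinostat plus ATRA and from 0 to 1 for the departure from additivity. The causes were not tested, and the shares of all tested genes under these settings are not given. Same-numbered arrays deviated together with correlations of 0.02 to 0.42 over 28 pairs of groups (26 over 0.1), but with 2 numbers this is a hint from the data and not a stated pairing, and the block changed no other count by over 1.5 times. It lost no call and added 21, among them HNRNPK in ATRA plus doxorubicin (-0.42, limma adjusted p = 0.0231) and with 3 drugs (-0.40, 0.017), HNRNPH3 in doxorubicin (-0.77, 0.00817), SFRS5 in entinostat plus doxorubicin (0.35, 0.0432), HNRNPA2B1 for entinostat on average (-0.22, 0.0414), HNRNPA0 for the departure from additivity (-0.68, 0.0347), SFRS2B in entinostat (-0.46, 0.0472), and SFRS1, SFRS2B and HNRNPH3 in entinostat plus ATRA. Dim genes are limited by signal over background.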
